A study of Homo sapiens with 2 samples.

Results

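Chemokines are small secreted proteins that direct the movement of leukocytes, and 10 genes of this family were compared between a lung cancer line and its drug-resistant subline. The 10 were CCL2 and CCL20 of the CC subfamily, CXCL1, CXCL2, CXCL3, CXCL5, CXCL6, CXCL8 and CXCL10 of the CXC subfamily, and CX3CL1. They were listed by name out of 18377 genes measured. The list was chosen by the differences between these same arrays, so those differences are given as a description with no test. Each was measured by 1 probe set that names no other gene, and all 10 were found.

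EBC1 cells come from a human squamous carcinoma of the lung and depend on an amplified MET gene for growth. EBC1-R was derived from it by growth in stepwise higher doses of PHA-665752, which inhibits the MET kinase, and was then kept in medium with 3 µM of that inhibitor. Both lines were grown in medium with serum, and the labels give no drug for EBC1. The study asked how EBC1-R resists MET inhibition. There was 1 array of EBC1 and 1 array of EBC1-R, so no value has a replicate error and no test was possible. Acquired resistance and the drug in the medium cannot be told apart, and the labels do not say whether EBC1-R came from 1 clone.

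Chemokines are classed by the spacing of their first cysteines. CXC chemokines that carry a glutamate-leucine-arginine (ELR) triplet before the cysteines (CXCL1, CXCL2, CXCL3, CXCL5, CXCL6, PPBP and CXCL8) attract neutrophils through CXCR2, some of them also through CXCR1. CCL2 attracts monocytes through CCR2, CCL20 attracts CCR6-bearing lymphocytes and dendritic cells, and CXCL10 is an interferon-induced ligand of CXCR3. CX3CL1 is made as a membrane protein, binds CX3CR1 and is cut from the cell surface by the proteases ADAM10 and ADAM17. In epithelial cells, inflammatory cytokines induce many of these genes through the transcription factor NF-kB.

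The promoters are shown first because the 6 ELR genes of the set share a sequence element there. RefSeq promoters (GRCh38.p14) of 300 bases, of which 250 precede the start of the gene, were matched by symbol for 8 of the 10 genes and not for CCL2 and CX3CL1. The motifs searched on both strands were GGAATTTCC, a form of the NF-kB site, GGGNNTTCC, a looser NF-kB form, TGANTCA, the AP-1 site, GAAA followed after any 2 bases by GAAA, the core of the interferon response element, and TATAAA, the TATA box. Capitals below mark the matches to these motifs, which did not overlap each other. Each stretch reads 5′ to 3′ along the gene and ends 21 bases before its start, except that of CXCL10, which ends 101 bases before.
CXCL8 (chr4:73740419-73740548, plus strand): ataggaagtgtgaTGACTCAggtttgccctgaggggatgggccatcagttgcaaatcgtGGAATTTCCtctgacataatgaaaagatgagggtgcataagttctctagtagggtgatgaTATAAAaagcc
CXCL6 (chr4:73836568-73836657, plus strand): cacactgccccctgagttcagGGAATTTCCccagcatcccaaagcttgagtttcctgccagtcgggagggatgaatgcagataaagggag
CXCL1 (chr4:73869283-73869372, plus strand): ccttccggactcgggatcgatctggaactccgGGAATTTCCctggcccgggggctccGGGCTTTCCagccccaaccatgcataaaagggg
CXCL5 (chr4:73998698-73998787, minus strand): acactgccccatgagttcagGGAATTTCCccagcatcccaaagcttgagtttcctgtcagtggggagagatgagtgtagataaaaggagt
CXCL3 (chr4:74038710-74038799, minus strand): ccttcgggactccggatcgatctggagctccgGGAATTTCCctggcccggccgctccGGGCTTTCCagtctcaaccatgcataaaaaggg
CXCL2 (chr4:74099216-74099305, minus strand): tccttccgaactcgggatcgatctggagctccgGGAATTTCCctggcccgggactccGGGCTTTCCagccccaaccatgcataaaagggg
CXCL10 (chr4:76023598-76023727, minus strand): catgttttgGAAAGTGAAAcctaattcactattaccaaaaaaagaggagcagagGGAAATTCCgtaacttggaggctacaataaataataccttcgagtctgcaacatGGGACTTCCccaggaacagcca
CCL20 (chr2:227813732-227813821, plus strand): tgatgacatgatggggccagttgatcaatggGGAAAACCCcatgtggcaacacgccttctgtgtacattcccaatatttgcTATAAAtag

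All 6 ELR genes of the set held GGAATTTCC on the strand of the gene, beginning between 77 bases (CXCL2) and 91 bases (CXCL8) before the start. CXCL1 and CXCL3 held it at the same distance, 78 bases, CXCL6 at 89 bases and CXCL5 at 90 bases. CXCL10 held it on the opposite strand, at 176 bases, so 7 of the 8 promoters held this motif. It was held by 0.461% of all 35116 RefSeq promoters. Among 25 promoters of other chemokine ligands it was found in that of CXCL11 alone, and not in that of PPBP, the other ELR ligand. CXCL1, CXCL2 and CXCL3 each held a match to GGGNNTTCC 53 bases before the start, CXCL10 at 122 bases and CCL20, on the opposite strand, at 79 bases, against 6.58% of all promoters. CXCL8 alone of the 8 held TGANTCA, at 137 bases (7.71% of all promoters), and CXCL10 alone held the interferon response core, at 221 bases (3.57%). TATAAA was present in CXCL8 at 31 bases and in CCL20 at 29 bases (11.5% of all promoters). A match is a run of letters and does not show that a factor was bound in these cells.

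**Figure D1:**
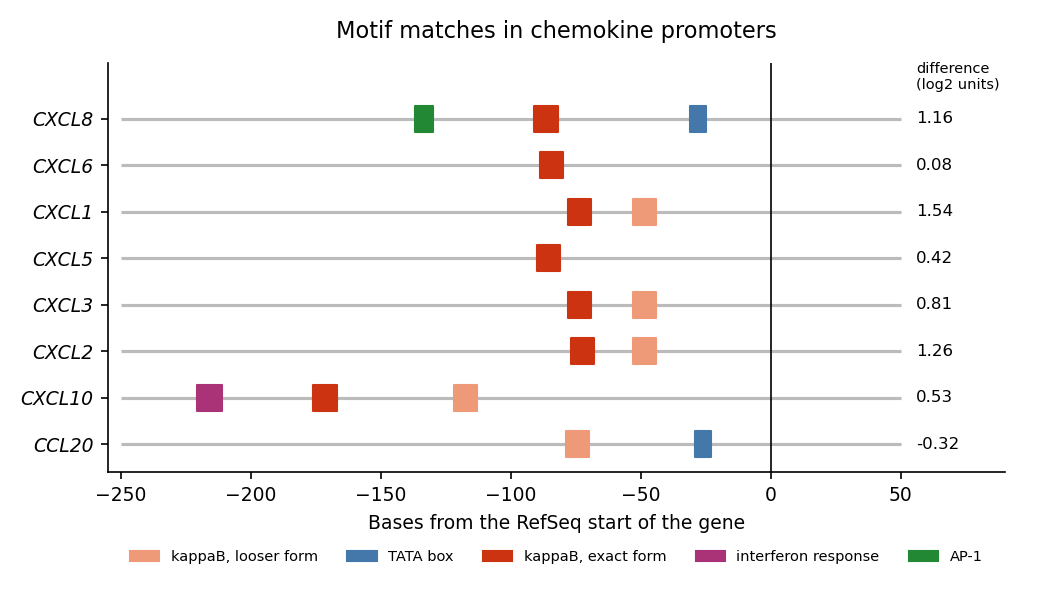
Motif matches in the promoters of 8 chemokines, plotted by distance in bases from the RefSeq start of each gene, with the log2 difference of EBC1-R minus EBC1 at the right. The exact kappaB form lies 77 to 91 bases before the start in the 6 ELR genes, whose differences run from 0.08 to 1.54.

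The 10 chemokines were mostly higher in EBC1-R, by amounts that varied widely among them. The difference is the deposited log2 intensity of EBC1-R minus that of EBC1. Of the 10 genes, 9 were higher in EBC1-R and 4 at least 2-fold, which are CCL2, CXCL1, CXCL2 and CXCL8. Over all genes measured, 43.3% were higher by any amount and 1.26% at least 2-fold. Since the genes were listed from this comparison, nothing is read from these shares. CCL20 was the 1 gene of the 10 with a lower value in EBC1-R, and 0.887% of all genes were at least 2-fold lower. The median difference of the 10 was 0.67 log2 units, and that of all genes was -0.03.

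**Figure D2:**
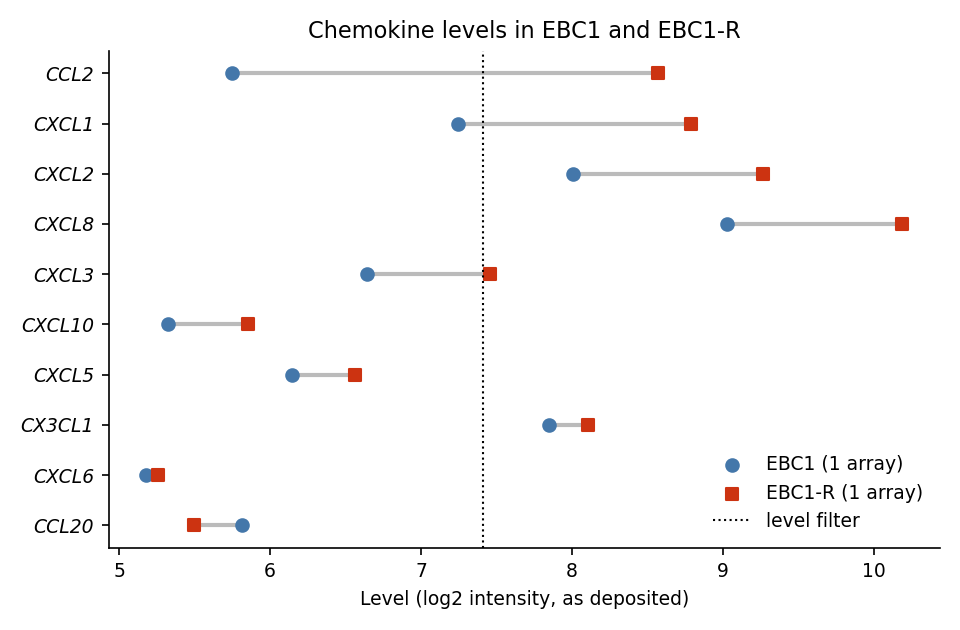
Deposited log2 intensity of each of the 10 chemokines on the EBC1 array (circles) and the EBC1-R array (squares), ordered by their difference, with the level filter of 7.41 dotted. CCL2 has the widest gap, from 5.75 to 8.57, and CCL20 is the 1 gene whose EBC1-R value lies to the left.

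Among the ELR chemokines, CXCL1 read 7.24 on the EBC1 array and 8.79 on the EBC1-R array. This is a difference of 1.54 log2 units or 2.92-fold, at rank 70 of the 18377 genes from the highest difference down. CXCL1, first found as a growth factor of melanoma cells, is a main neutrophil attractant of epithelium.

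CXCL2, a close paralog of CXCL1, read 8.0 on the EBC1 array and 9.27 on the EBC1-R array, 2.40-fold higher and at rank 126. CXCL8, also called interleukin 8, read 9.03 on the EBC1 array and 10.19 on the EBC1-R array, 2.23-fold higher and at rank 157. CXCL3 was at 6.64 and 7.46, a difference of 0.81 log2 units or 1.76-fold, at rank 385. These 4 genes, which act on CXCR2, had their higher value in EBC1-R in every case, with CXCL3 under the 2-fold threshold.

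CXCL5 and CXCL6 differed less. CXCL5, which platelets and epithelium release, read 6.15 on the EBC1 array and 6.56 on the EBC1-R array, a difference of 0.42 log2 units or 1.33-fold. CXCL6 read 5.18 on the EBC1 array and 5.26 on the EBC1-R array, a difference of 0.08 log2 units or 1.06-fold. The upstream 250 bases of CXCL5 and CXCL6 were 85.3% identical, the highest share of any pair among the 8 promoters. Those of CXCL1 and CXCL3 were 81.4% identical, of CXCL2 and CXCL3 73.3%, and of CXCL1 and CXCL2 71.4%. All other pairs lay between 43.8% (CXCL1 and CXCL10) and 54.4% (CXCL2 and CXCL5). The CXCL5 and CXCL6 promoters thus held the same NF-kB form as CXCL1, CXCL2 and CXCL3 in a different surrounding sequence. CXCL1, CXCL2 and CXCL3 are also alike in their transcripts, and whether their probes pick up each other's transcripts was not tested.

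CCL2 had the widest difference of the 10 genes. It read 5.75 on the EBC1 array and 8.57 on the EBC1-R array, a difference of 2.82 log2 units, at rank 9 of all genes. The EBC1 value is not separated from background, so the size of this difference is that of the deposited values and may understate the change in transcript. CCL20, which mucosal epithelium releases during inflammation, read 5.81 on the EBC1 array and 5.49 on the EBC1-R array, a difference of -0.32 log2 units or 1.25-fold. The CC chemokines of the set thus had values on opposite sides, CCL2 with its higher value in EBC1-R and CCL20 with its higher value in EBC1.

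CXCL10, which draws T cells, read 5.32 on the EBC1 array and 5.85 on the EBC1-R array, a difference of 0.53 log2 units or 1.44-fold. CX3CL1 read 7.85 on the EBC1 array and 8.10 on the EBC1-R array, a difference of 0.25 log2 units or 1.19-fold. Both genes were higher in EBC1-R and under the 2-fold threshold.

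A gene was counted as at or above the level filter when the higher of its values reached 7.41, the median over all genes of the higher value. CCL2, CXCL1, CXCL2, CXCL3, CXCL8 and CX3CL1 reached it, and CCL2, CXCL1 and CXCL3 did so through EBC1-R alone. CCL20, CXCL5, CXCL6 and CXCL10 stayed under it on both arrays. No detection calls were used, so these low values, and that of CCL2 in EBC1, are not separated from background. Differences spread less at low intensity on these arrays. Among the 1000 genes nearest to CXCL10 in mean level, the central 95% of differences ran from -0.41 to 0.46 log2 units. Among the 1000 genes nearest to CXCL2 the same range was -0.85 to 0.85. By the range at their own level, CCL2, CXCL1, CXCL2, CXCL8 and CXCL10 lay outside it and the other 5 genes inside. CXCL10 did so at values not separated from background. A central 95% range leaves some genes outside by construction, and the genes of the set were listed from this same comparison. Nothing is therefore read from which of them lay outside. CXCL3, at 0.81, lay inside a range that ended at 0.90, and CCL20, at -0.32, inside one that began at -0.42. These ranges describe the spread across genes of this pair of arrays and are no replicate error.

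**Figure D3:**
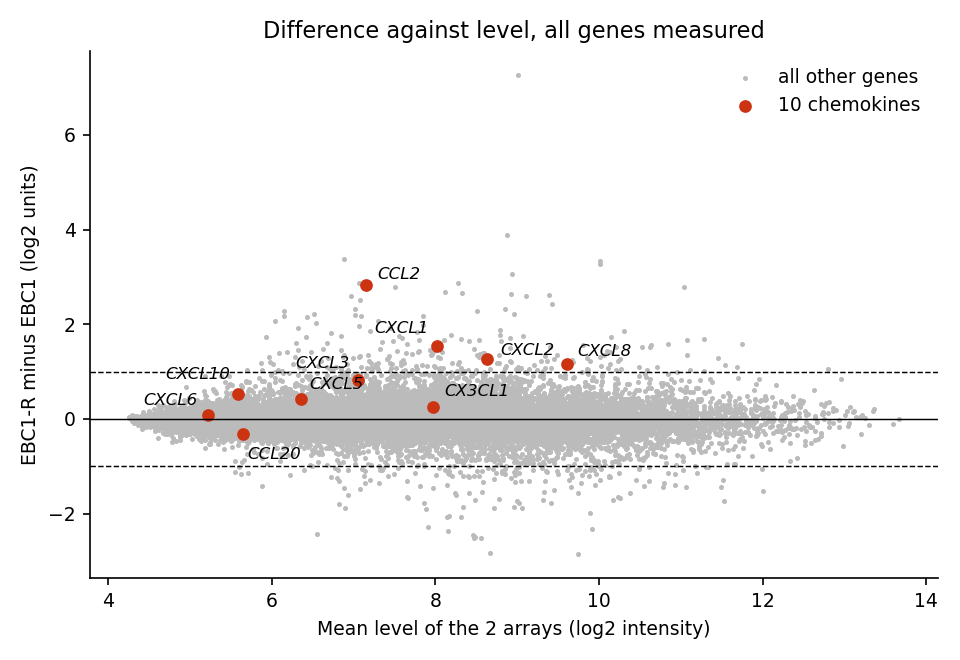
Difference of EBC1-R minus EBC1 in log2 units against the mean log2 intensity of the arrays, for the 10 chemokines (large points) and all other genes measured (small points). The dashed lines mark 1 log2 unit in each direction, which CCL2, CXCL1, CXCL2 and CXCL8 exceed.

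In the rest of the family, 2 more ligands were at least 2-fold higher in EBC1-R. CXCL16, a membrane-anchored ligand of CXCR6 that also takes up oxidised lipoprotein, read 7.38 on the EBC1 array and 8.68 on the EBC1-R array, 2.46-fold higher. CCL5, an attractant of T cells and monocytes, was at 6.13 and 7.23, 2.14-fold higher and under the level filter on both arrays. With a pseudocount of 16 its difference fell under 2-fold. Of 40 chemokine ligands measured out of 48 listed, 21 were higher, 18 lower and 6 at least 2-fold higher, and none was 2-fold lower. The set listed from this comparison supplied 4 of these 6. Across the array, 43.3% of genes were higher, 1.26% passed 2-fold upward and 0.887% passed it downward. With a downward share that small, nothing is read from the lack of a 2-fold lower ligand among 40. The 30 ligands outside the set had a median difference of -0.02 log2 units, with 12 higher, 17 lower and CCL19 equal on both arrays.

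By subfamily, the 7 ELR ligands had a median difference of 0.81 log2 units and all 7 were higher. Of these, 6 belong to the set listed from this comparison, so nothing is read from that median or count. The remaining ELR ligand, the platelet protein PPBP, read 5.54 on the EBC1 array and 5.97 on the EBC1-R array. The 10 other CXC ligands had a median of 0.01, with 5 higher and 5 lower. The 20 CC ligands had a median of -0.02, with 6 higher and 13 lower, and the 3 ligands of the XC and CX3C classes a median of 0.14. A further 8 probe sets that each name several genes, among them CCL3, CCL4, CCL14, CCL15 and CCL27, were left out of these counts. Their differences ran from -0.16 to -0.03 log2 units.

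Receptors for these ligands differed little. Of 16 chemokine receptors measured, none was 2-fold different and none reached the level filter. Their differences ran from -0.35 to 0.17 log2 units, with a median of 0.02. CXCR2, the receptor of the ELR ligands, read 4.84 on the EBC1 array and 4.74 on the EBC1-R array. CXCR1, which CXCL8 and CXCL6 also bind, was at 4.95 and 5.0. CCR2, the CCL2 receptor, was at 4.91 and 4.88, and the deposited values of CXCR3 were equal at 6.56. These 4 receptors were picked because they bind ligands of the set. CCR6, the CCL20 receptor, and CX3CR1, picked in the same way, were at 5.31 and 5.37 and at 5.30 and 5.01. The 5 atypical receptors, which bind chemokines without the usual signalling, were all lower in EBC1-R, by a median of -0.16 log2 units. Over all genes measured, 10197 of 18377 were lower, so nothing is read from the shared direction of these 5. ACKR1, ACKR2, ACKR3 and ACKR4 were under the level filter on both arrays. CCRL2, which presents chemerin, was the 1 atypical receptor at or above it. It read 7.84 on the EBC1 array and 7.01 on the EBC1-R array, 1.78-fold lower.

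**Figure D4:**
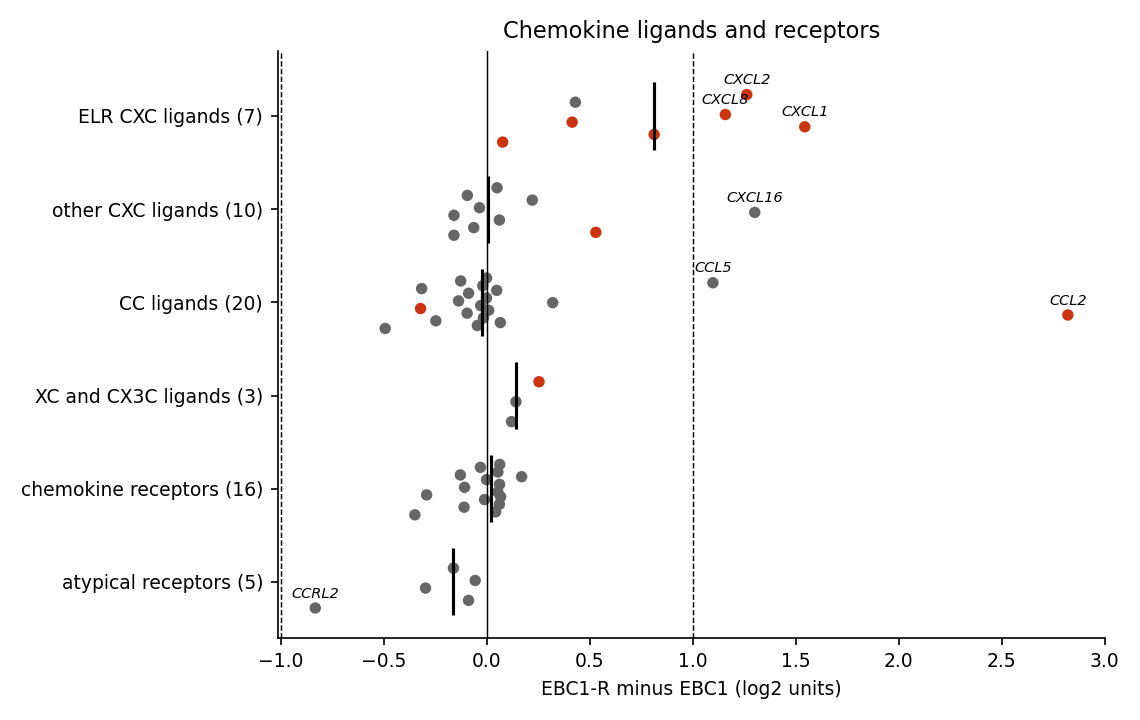
Difference of EBC1-R minus EBC1 in log2 units for each measured chemokine ligand and receptor by class, with the number of genes in brackets and the class median as a vertical bar. Red points are the 10 chemokines of the set, and dashed lines mark 1 log2 unit. The ELR class, most of it in the set listed from this comparison, has its median at 0.81. The chemokine receptors, all under the level filter, lie between -0.35 and 0.17.

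Of the 2 flanking genes named on each side, all but PLLP differed by at most 0.30 log2 units in either direction. Genes further out reached -0.89 (EREG, beyond EPGN) and 0.53 (SHROOM3, beyond NUP54). In RefSeq order, the 6 ELR genes of the set lie in 1 stretch of chromosome 4 with PF4V1, PF4, PPBP and the pseudogene PPBPP2 among them. Within that stretch, PF4V1 and PF4, platelet chemokines without the ELR triplet, each differed by -0.16 log2 units and PPBPP2 by -0.18, named here after their values were seen. The flanking genes RASSF6 and AFM on the CXCL8 side differed by -0.18 and 0.01. MTHFD2L and EPGN on the CXCL2 side differed by -0.08 and -0.05. PPBP, CXCL5 and CXCL3, which follow each other there, differed by 0.43, 0.42 and 0.81, and CXCL6 differed by 0.08. Higher and lower values were thus both found along the stretch, and a cause common to it was not tested.

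CXCL10 lies further along chromosome 4 between the interferon-induced chemokines CXCL9 and CXCL11. CXCL9 differed by 0.06 log2 units, ART3 between them by -0.07, CXCL11 by 0.22 and NUP54 by 0.30. CCL2 lies on chromosome 17 beside CCL7, which differed by 0.05, and CCL11, which differed by -0.25. On its other side ASIC2 differed by 0.25 and SPACA3 by 0.05. Each of these CCL2 neighbours differed by less than CCL2, as did nearly all genes, since CCL2 was at rank 9 of all genes. The genes beside CCL20 on chromosome 2, SLC19A3, SLC19A4P, DAW1 and SPHKAP, differed by -0.03, -0.06, 0.00 and 0.04. On chromosome 16 CX3CL1 lies between CCL22 (0.01) and CCL17 (-0.09), ligands of CCR4, with CIAPIN1 (0.04) beyond CCL17. PLLP, beyond CCL22, was 2.0-fold lower in EBC1-R.

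Among the cytokines and receptors that induce chemokines, 15 of 20 were higher in EBC1-R, 4 were lower, and 4 were at least 2-fold higher. Their median difference was 0.29 log2 units. Over all genes, 43.3% were higher and 1.26% at least 2-fold higher. This list and the pathway lists below were drawn up with earlier results of these data known, so nothing is read from their counts. The 4 lower genes were TLR4 (1.72-fold lower), IL17C, TNFRSF1A and IL17RA. Interleukin 6 (IL6) read 6.11 on the EBC1 array and 8.89 on the EBC1-R array. Interleukin 1 alpha (IL1A), an epithelial alarm signal that induces CXCL1 and CXCL8, was at 7.29 and 9.08, 3.44-fold higher. The interferon gamma receptor chain IFNGR1 was at 7.88 and 9.27, 2.62-fold higher, and the TNF receptor TNFRSF1B at 6.62 and 7.81, 2.28-fold higher.

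Of 16 NF-kB factors and regulators, 11 were higher and 5 lower, 3 were at least 2-fold higher, and the median was 0.23. Among all genes 43.3% were higher and 1.26% at least 2-fold higher. TNFAIP3, a feedback inhibitor of NF-kB, read 7.90 on the EBC1 array and 9.68 on the EBC1-R array, 3.43-fold higher. The subunit REL was at 7.73 and 9.21, 2.79-fold higher. The inhibitor NFKBIA, itself induced by NF-kB, was at 10.81 and 12.10, 2.46-fold higher. BCL3, a nuclear cofactor of NF-kB subunits, was at 8.67 and 9.42, 1.68-fold higher. The genes of this list that passed 2-fold were thus a subunit and inhibitors of the pathway.

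The 5 measured interferon axis factors had a median difference of 0.33 log2 units, with 3 higher and 2 lower. IRF1, an activator of CXCL10, was 1.76-fold higher, from 8.68 to 9.49. IRF9, of the interferon-activated complex, was 1.35-fold higher and STAT3 1.26-fold higher, whereas IRF3 was 1.22-fold lower.

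AP-1 and C/EBP factors differed in both directions. Of 8 genes, 3 were higher and 5 lower, with a median of -0.16. The AP-1 subunit FOSL1, which growth factor signals through ERK induce, was 2.71-fold lower, from 11.50 to 10.07. JUN was 1.60-fold lower, from 10.19 to 9.51. CEBPD, an acute phase factor, was 1.92-fold higher, from 9.39 to 10.33, and ATF3, a stress-induced factor, 1.34-fold higher.

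Of 8 mRNA decay regulators 7 were lower, with a median of -0.17, and over all genes measured 10197 of 18377 were lower. ZFP36 (tristetraprolin), which binds AU-rich elements and speeds the decay of cytokine and chemokine transcripts, was 2.08-fold lower, from 9.38 to 8.33. Its paralog ZFP36L1 was 1.37-fold lower and the decay factor KHSRP 1.15-fold lower. ZC3H12A, a ribonuclease that cuts inflammatory transcripts, was the 1 gene of the list that was higher, by 1.75-fold, from 8.71 to 9.52. The decay factors named here thus lay on both sides.

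Of 9 genes that process or present chemokines, 6 were higher and 3 lower, with a median of 0.30, against 43.3% of all genes higher. SDC1, a heparan sulphate proteoglycan that holds chemokines at the cell surface, was 2.34-fold lower, from 10.75 to 9.52. ADAM17 was 1.73-fold higher, from 9.64 to 10.43, and ADAM10, which also sheds CXCL16, 1.23-fold higher, from 11.00 to 11.30.

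**Figure D5:**
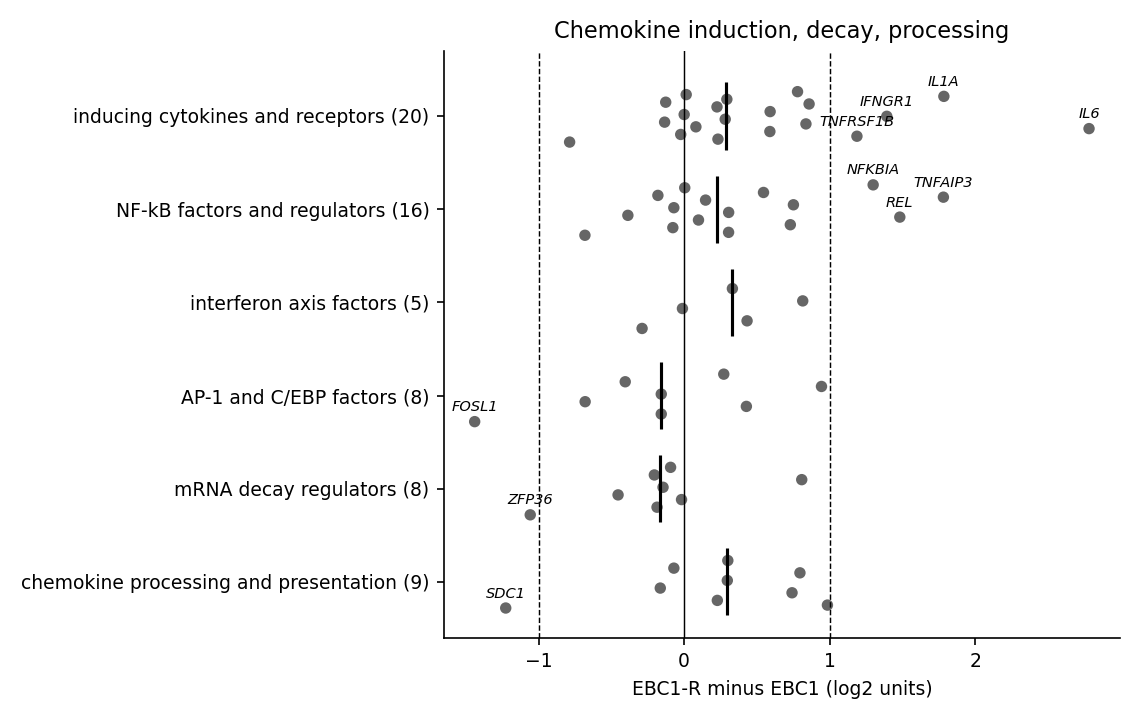
Difference of EBC1-R minus EBC1 in log2 units for each measured gene of 6 lists of chemokine induction, decay and processing, with the number of genes in brackets and the list median as a vertical bar. Genes past the dashed lines at 1 log2 unit are named, with 7 higher and 3 lower in EBC1-R.

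The NF-kB form held by the promoters of the 6 ELR genes of the set was also looked up in the promoters of all other measured genes. Of 14210 measured genes with a promoter in the table, 1.3% were 2-fold or more higher and 0.844% 2-fold or more lower. Of the 81 with GGAATTTCC, 7 were 2-fold or more higher and 2 lower to that extent, with a median difference of 0.08 log2 units. Without the chemokines of the set, 74 genes remained, of which 4 passed 2-fold upward and 2 downward, with a median of 0.05. Those 4, named after their values were seen, were REL, NFKBIA, the T cell costimulator TNFRSF9 (2.55-fold) and COBLL1 (2.21-fold). Most genes with this motif were under 2-fold, CXCL5 and CXCL6 among them. Of the 1350 genes with GGGNNTTCC, 21 passed 2-fold upward and 16 downward, with a median of -0.03. The 21 include CXCL1 and CXCL2 of the set listed from this comparison. No test was run on these counts.

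Epithelial markers were high on both arrays and the squamous markers measured were not. The epithelial markers EPCAM, CDH1, KRT8, KRT18 and KRT19 lay between 11.3 and 12.8 in EBC1 and between 11.2 and 12.1 in EBC1-R, with a median difference of -0.78. KRT8, KRT18 and KRT19 differed by -0.83, -0.78 and -0.89, and EPCAM and CDH1 by -0.08 and 0.10. The part of this keratin difference in the chemokine values was not tested. Of 6 squamous markers measured, KRT5 and SOX2 among them, none reached the level filter, KRT14 coming closest at 7.26 in EBC1. The squamous markers TP63 and KRT6A were not measured, so the arrays do not show the squamous class of the line. Leukocytes, fibroblasts and endothelial cells also make chemokines. The 24 markers of these cells had a median level of 5.64 in EBC1 and 5.60 in EBC1-R and a median difference of -0.02, with none 2-fold different. Their levels ran from 4.54 to 11.04 in EBC1 and from 4.56 to 11.45 in EBC1-R, the top in each case being the lysosomal protein CD68. Of the 24, 2 reached the level filter, CD68 and the fibroblast marker COL1A1, which was at 7.64 and 7.61. PTPRC, which marks leukocytes, was at 4.56 and 4.65, and PECAM1, which marks endothelium, at 4.84 and 4.91.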

How the data were processed

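The authors deposited 1 table of log2 intensities, 1 value per probe set and array, for 2 arrays. The log base was inferred from the values' range (4.21 to 14.1 and 4.22 to 14.2). For background correction, summarization and normalization, no source used here gives a method. The sorted columns differed by at most 0.17, so a change common to most genes would not show. Per the labels' protocols, 100 ng of RNA was labelled with a whole-transcript kit. The array named in the extraction protocol differs from the one that the probe identifiers match. No depth applies, and the number of arrays limits the precision.

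Of 28869 probe sets, the annotation gives 1 symbol for 19310, several for 1752 and none for 7807. Probe sets with 1 symbol were averaged per gene, which gave 18377 genes (Python 3.11.15, pandas 2.3.3). All 10 members were found by symbol in the RefSeq gene table, used for gene order only, since the build of the array design is not given. The threshold was a difference of 1 log2 unit. Promoter identity came from a global alignment. Counting was tested on simulated data. The members and all gene lists were chosen with earlier results of these data known. Named were the members, other chemokine ligands and receptors 2-fold different or at the level filter, up to 4 genes of each pathway list at the filter with the largest difference, and the 2 genes on each side of the members. Receptors of the members' ligands, atypical receptors, the markers, PPBP, the lower genes among the inducing cytokines and receptors, EREG and SHROOM3 were named besides. Alternatives were quantile normalization, centring, a lowess trend (span 0.2), a pseudocount of 16, the brightest probe set, probe sets with several symbols, other fold thresholds and the level filter.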

Additional observations from a re-analysis of the deposited data

How the results depend on the processing

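With 1 array a group, no replicate could be left out. No paired analysis was possible because each group has 1 sample and no test was run. Quantile normalization, centring, the lowess trend, the pseudocount of 16, the brightest probe set and probe sets with several symbols gave 60 differences for the 10 chemokines, and none changed sign. CCL2, CXCL1, CXCL2 and CXCL8 were at least 2-fold higher in all 6. The brightest probe set and the probe sets with several symbols could not change these values. Each of the 10 has 1 probe set, and none with several symbols names it. Centring moved all genes by the same amount. Of the 60, 1 moved by at least 0.16 log2 units, the pooled SD among a gene's own probe sets: CCL2 with the pseudocount, at 2.5. At a 3-fold threshold the count of the 10 fell from 4 to 1, and that of all chemokine ligands from 6 to 1, since fewer differences reach it. Limited to genes at or above the level filter, 5 ligands were counted, and with the pseudocount also 5, CCL5 dropping out each time. The median of the ELR ligands at or above the filter was 1.21, a value partly selected by the difference itself. Low signal limits the values of CXCL6, CXCL10 and CCL20 on both arrays and of CCL2 in EBC1, which may lie near background.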
